A study of Mus musculus with 11 samples.

Results

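The dual-specificity MAP kinase phosphatases are enzymes that switch off MAP kinases, and 7 of their genes were followed across 3 states of mouse macrophages: Dusp1, Dusp2, Dusp4, Dusp5, Dusp6, Dusp10 and Dusp16. They were taken by name, with earlier results of these data known, and are 7 of the 18193 genes with a symbol of their own on the array. Together they have 9 of its 45101 probe sets, since Dusp10 and Dusp16 have 2 each. The brightest probe set of a gene, by its mean over all 11 arrays, stood for it. Bone marrow came from Rag1-/- C57BL/6 mice aged 7 weeks, which lack mature B and T cells, and was kept in culture over 7 days. M1 cells (3 arrays) received IFN-g, with LPS for the last 24 h. M2a cells (3 arrays) received IL-4 and IL-13. M0 cells (5 arrays) received no cytokines and served as the standard of the study. All 3 groups carried the Rag1 deletion and were sorted for F4/80, a surface protein of mouse macrophages encoded by Adgre1. The RNA was read on Affymetrix GeneChip arrays of the mouse genome, and all values below are deposited log2 probe-set values, so a difference of 1 is a 2-fold change. Whether the replicates of a group were grown from different mice is not in the labels. The p-values therefore cover the spread among these arrays alone, and part of it may be technical.

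MAP kinases (ERK, JNK and p38) are active only while both a threonine and a tyrosine of their activation loop carry phosphate, and the dual-specificity phosphatases remove both. Many are themselves transcribed in response to MAP kinase signalling, which makes their mRNA part of a negative feedback loop. Dusp1, Dusp2, Dusp4 and Dusp5 encode inducible nuclear enzymes, Dusp6 encodes a cytoplasmic enzyme that prefers ERK, and Dusp10 and Dusp16 encode enzymes directed mainly at JNK and p38. In macrophages Dusp1 is known for limiting cytokine production after stimulation of Toll-like receptors.

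RefSeq promoter windows (build GRCm38.p6) were available for 6 of the 7 genes. Each covers the 250 bases before the annotated start. They are printed from 5′ to 3′ in the direction of transcription, to set the genes with their highest group mean in M1 (Dusp1, Dusp2 and Dusp16) beside those with it in M0 (Dusp5, Dusp6 and Dusp10). Capitals mark matches to a searched motif.
Dusp1: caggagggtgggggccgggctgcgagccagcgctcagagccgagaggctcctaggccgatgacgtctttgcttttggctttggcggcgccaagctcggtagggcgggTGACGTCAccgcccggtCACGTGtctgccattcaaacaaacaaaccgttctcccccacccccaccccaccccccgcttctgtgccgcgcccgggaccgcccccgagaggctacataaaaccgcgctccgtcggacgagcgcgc
Dusp2: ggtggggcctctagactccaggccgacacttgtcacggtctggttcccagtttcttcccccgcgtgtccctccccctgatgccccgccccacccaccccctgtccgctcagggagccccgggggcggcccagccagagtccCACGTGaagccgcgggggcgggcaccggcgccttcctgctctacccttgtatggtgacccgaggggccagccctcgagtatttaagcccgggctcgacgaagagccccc
Dusp16: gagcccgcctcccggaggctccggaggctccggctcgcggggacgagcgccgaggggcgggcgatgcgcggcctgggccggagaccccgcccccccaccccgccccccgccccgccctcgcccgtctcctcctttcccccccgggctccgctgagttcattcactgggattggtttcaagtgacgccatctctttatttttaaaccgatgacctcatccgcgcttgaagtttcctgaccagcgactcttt
Dusp5: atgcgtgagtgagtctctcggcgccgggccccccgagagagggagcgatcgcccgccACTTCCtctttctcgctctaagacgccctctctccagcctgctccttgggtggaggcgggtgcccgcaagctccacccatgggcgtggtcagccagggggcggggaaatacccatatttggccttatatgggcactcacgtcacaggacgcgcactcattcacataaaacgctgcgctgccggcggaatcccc
Dusp6: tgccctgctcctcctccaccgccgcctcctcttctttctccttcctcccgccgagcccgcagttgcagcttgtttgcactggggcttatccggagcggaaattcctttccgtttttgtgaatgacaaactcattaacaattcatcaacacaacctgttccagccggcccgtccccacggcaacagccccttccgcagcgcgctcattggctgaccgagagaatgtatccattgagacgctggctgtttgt
Dusp10: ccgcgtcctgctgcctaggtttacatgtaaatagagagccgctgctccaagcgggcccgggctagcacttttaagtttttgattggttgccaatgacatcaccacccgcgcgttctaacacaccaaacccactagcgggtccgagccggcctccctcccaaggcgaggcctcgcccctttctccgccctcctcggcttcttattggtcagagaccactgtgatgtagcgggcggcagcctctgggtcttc
The Dusp1 window lies at chr17:26508473-26508722 on the minus strand, and holds the palindromic cyclic AMP response element TGACGTCA at 143 to 136 bases before the start and the E-box CACGTG at 126 to 121 bases. The Dusp2 window, chr2:127335909-127336158 on the plus strand, holds CACGTG at 109 to 104 bases before the start. The Dusp5 window, chr19:53528895-53529144 on the plus strand, holds the ETS core GGAAGT on its minus strand, seen above as ACTTCC, at 193 to 188 bases. No searched motif was found in the windows of Dusp16 (chr6:134792629-134792878, minus strand), Dusp6 (chr10:99262981-99263230, plus strand) or Dusp10 (chr1:184034131-184034380, plus strand). Both strands were searched. Of 32851 promoter windows of this length, TGACGTCA was present in 1.55%, CACGTG in 6.02% and GGAAGT in 19.7%. TGACTCA, which is TGAGTCA on the other strand and so the same AP-1 site, was present in 4.46%, TTCNNNGAA in 7.02%, the NF-kB consensus in 7.25% and the STAT6 N4 element in 5.85%, and none of these was in a window of the 6 genes. A match shows only that the letters are present. The 6 windows were 56.4% to 70.4% G and C, against a median of 52.4% over all windows.

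The groups carried their state markers. Mean Cxcl9, an interferon-induced chemokine, was 12.21 in M1, 3.00 in M2a and 2.73 in M0. Mean Arg1, the arginase of IL-4-treated macrophages, was 8.76 in M1, 12.97 in M2a and 5.29 in M0, and mean Adgre1 was 12.41 in M1, 11.74 in M2a and 11.19 in M0. Of 8 macrophage markers, 4 were higher and 1 lower in M1 than in M0 (median 0.80), while 1 was higher and 5 were lower in M2a than in M0 (median -1.01), among them Mertk at 7.26 in M2a and 9.11 in M0. The groups also differed in markers of other cell types, although all had been sorted for F4/80. The mean level of 11 neutrophil-lineage genes was 7.26 to 7.43 on the M1 arrays, 5.38 to 5.47 on the M2a arrays and 11.42 to 12.88 on the M0 arrays, and 10 of the 11 were lower in M1 and 11 in M2a than in M0. Of 7 eosinophil, basophil and mast cell genes, 7 were lower in M1 (median -4.14) and 6 in M2a (median -3.50). Of 6 stromal and endothelial genes, 1 was lower in M1 (median -0.51) and 5 in M2a (median -1.77). Of 6 dendritic cell genes, 1 was lower in M1 (median -0.04) and 2 were higher in M2a (median 0.09). These 2 were Itgax and Flt3, the latter at 5.90 in M2a and 5.63 in M0. Itgax, the integrin CD11c, was 5.92 in M1, 12.07 in M2a and 7.21 in M0. All 5 cell-cycle genes measured were lower in M1 and in M2a. Genes counted here as higher or lower were called by limma at an adjusted p under 0.05. Among all genes 22.1% were called higher and 17.6% lower in M1 than in M0. For M2a these shares were 18.6% and 13.3%. The lowest deposited value of any probe set was 0.73, so a value above 0 does not show that a gene was expressed. The array's spiked-in hybridization controls averaged 9.71 ± 0.06 in M1 (SD, n = 3), 9.86 ± 0.09 in M2a (SD, n = 3) and 11.15 ± 0.52 in M0 (SD, n = 5). They were highest on M0 arrays 1 and 4. Their ranges were 9.64 to 9.75 in M1, 9.79 to 9.96 in M2a and 10.61 to 11.70 in M0, without overlap. With them as a covariate, a comparison with M0 carries a slope seen mostly among the M0 arrays to levels that no M0 array had. Such values are extrapolations. The spiked-in poly-A controls averaged 5.62 ± 0.05 in M1, 6.40 ± 0.10 in M2a and 9.62 ± 0.50 in M0 (SD). The Y-linked Eif2s3y was 8.48 to 8.87 in M1, 8.48 to 8.96 in M2a and 2.36 to 3.02 in M0, so cytokine state and the sex of the cells cannot be told apart in comparisons with M0. On each of the 45101 probe sets, M0 arrays 1 to 3 and M0 arrays 4 and 5 had equal means within 8.3e-05, so the number of independent M0 measurements is under 5. The part of these differences in the results was not tested. In bulk RNA of sorted cells, fewer cells of a type and less RNA per cell cannot be told apart.

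Among the 7 genes, 6 passed the test between M1 and M0, 3 higher (Dusp2, Dusp4 and Dusp16) and 3 lower (Dusp5, Dusp6 and the brighter probe set of Dusp10). Between M2a and M0, 4 passed, with Dusp4 higher and Dusp5, Dusp6 and the same Dusp10 probe set lower. The widest change was that of Dusp4 in M2a, and Dusp1 passed in no comparison. Over all genes, limma with Benjamini-Hochberg adjustment called 39.7% in M1 against M0 (22.1% higher, 17.6% lower) and 31.9% in M2a against M0 (18.6% higher, 13.3% lower). The M1 and M0 arrays did not overlap for 5 of the 7 genes, against 40.1% of all genes, and the M2a and M0 arrays for 5 of 7, against 35.1%. The median difference of the 7 genes was 0.37 in M1 against M0, where that of all genes was 0.06, and -0.28 in M2a against M0, where that of all genes was 0.07. The M1 and M2a comparisons share the same M0 arrays.

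**Figure D1:**
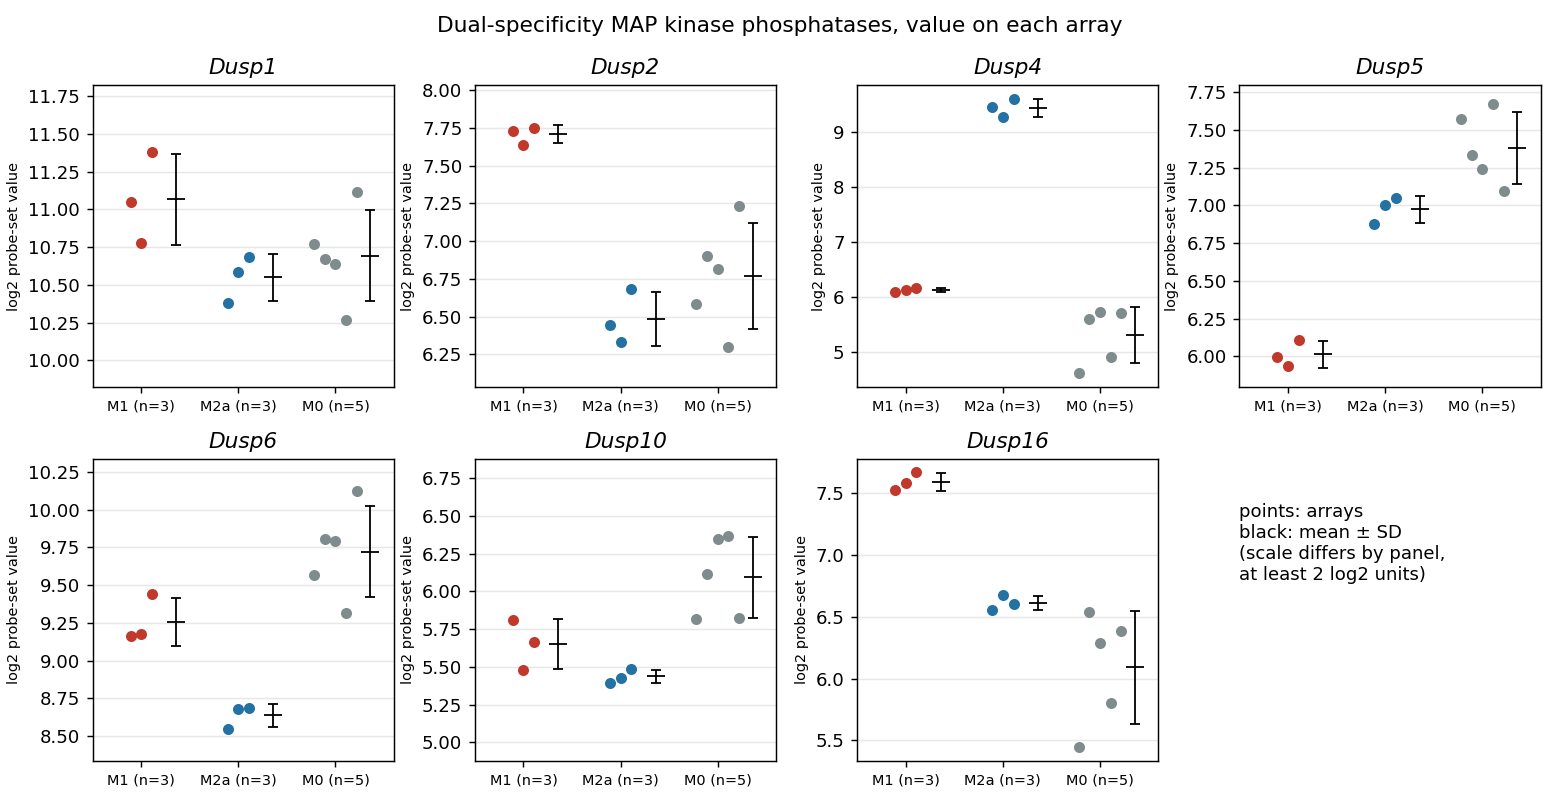
Log2 value of each phosphatase gene on each of the 11 arrays, 1 panel per gene, with M1, M2a and M0 from left to right. Points are arrays, black bars show mean ± SD, and the scale differs between panels. Dusp4 lies between 9.27 and 9.61 on the M2a arrays, above all M1 and M0 arrays, and Dusp5 and Dusp6 are highest in M0.

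Dusp4, also called MKP-2, encodes a nuclear phosphatase of ERK and JNK. Its log2 values were 6.09, 6.14 and 6.16 on the M1 arrays, 9.45, 9.27 and 9.61 on the M2a arrays and 4.61, 5.60, 5.73, 4.92 and 5.71 on the M0 arrays. No M2a array came near another group, and every M1 array was above every M0 array. Mean Dusp4 was 9.44 ± 0.17 in M2a (SD, n = 3) and 5.31 ± 0.51 in M0 (SD, n = 5), a difference of 4.13 ± 0.24 (SE, adjusted p = 2.5e-07 in limma), or 17.5-fold. This rise was the 16th highest among the 18193 genes. In M1 Dusp4 averaged 6.13 ± 0.04 (SD, n = 3), a difference of 0.81 ± 0.24 from M0 (SE, adjusted p = 0.0186 in limma). The gap to M0 in M1 depended on which M0 arrays were used. Dusp4 was lowest on M0 arrays 1 and 4, those with the highest hybridization controls, and without them the difference was 0.45 (adjusted p = 0.00241). The M1 call was lost when M1 array 1, 2 or 3 was left out (adjusted p = 0.053, 0.0589 and 0.0617), and with these controls as a covariate the difference was -0.50. The M2a difference kept its call under all 26 alternatives, at 2.94 to 4.23.

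Dusp1, or MKP-1, the nuclear phosphatase best known for restraining p38 and JNK after LPS, was the most even of the 7 genes. It read 11.05, 10.77 and 11.38 in M1, 10.38, 10.58 and 10.68 in M2a and 10.77, 10.67, 10.64, 10.27 and 11.12 in M0. The M0 arrays overlapped with both other groups. Its difference was 0.37 ± 0.18 (SE) in M1 against M0, with a 95% interval of -0.02 to 0.77 (adjusted p = 0.124 in limma), and -0.14 ± 0.18 (SE) in M2a against M0, with an interval of -0.54 to 0.25 (adjusted p = 0.583). Its 3 group means spanned 0.52, a range wider than that of 56.3% of all genes, whose median span was 0.45. The M1 difference passed the test without M0 array 5 (0.48, adjusted p = 0.0285), and its sign was negative with the hybridization controls (-0.19) or the actin probe ratio (-0.11) as a covariate.

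Dusp2, or PAC-1, a nuclear phosphatase of immune cells, rose in M1. Its values were 7.73, 7.64 and 7.75 in M1, 6.45, 6.33 and 6.68 in M2a and 6.58, 6.90, 6.82, 6.30 and 7.23 in M0. All M1 arrays were above all others, while the M2a arrays lay within the range of M0. The M1 difference from M0 was 0.94 ± 0.18 (SE, adjusted p = 0.00137 in limma), a 1.92-fold rise, and 0.39 with the actin probe ratio as a covariate (adjusted p = 0.0393). In M2a the difference was -0.28 ± 0.18 (SE) with a 95% interval of -0.67 to 0.11 (adjusted p = 0.256). With the hybridization controls as a covariate, the M1 difference was 0.04 (adjusted p = 0.888) and the M2a difference -1.09 (adjusted p = 0.00131).

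Dusp5, a nuclear phosphatase that is selective for ERK, fell in both cytokine states. It measured 5.99, 5.94 and 6.11 in M1, 6.88, 7.00 and 7.05 in M2a and 7.57, 7.33, 7.24, 7.67 and 7.09 in M0. The 3 groups did not overlap, with M1 lowest and M0 highest. In M1 the difference from M0 was -1.37 ± 0.13 (SE, adjusted p = 7.69e-06 in limma), which is 2.58-fold lower. It kept its call under all 26 alternatives, at -1.46 to -0.78, with -0.78 under the hybridization covariate. The M2a difference was -0.41 ± 0.13 (SE, adjusted p = 0.0329), and it no longer passed without M0 array 1 (adjusted p = 0.059) or when M2a array 1, 2 or 3 was dropped (0.129, 0.0831 and 0.0661). Its sign turned (0.12) once the hybridization controls entered the fit as a covariate.

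Dusp6, or MKP-3, holds ERK in the cytoplasm and dephosphorylates it there. Values were 9.16, 9.17 and 9.44 in M1, 8.55, 8.68 and 8.69 in M2a and 9.57, 9.80, 9.79, 9.32 and 10.12 in M0. The M2a arrays were below all others, and M1 array 3 reached above M0 array 4. Dusp6 fell in M2a, with a difference of -1.08 ± 0.16 (SE, adjusted p = 0.000304 in limma), 2.12-fold lower than in M0. That call held under all 26 alternatives, at -1.76 to -0.98, with -1.76 under the hybridization covariate. In M1 the difference was -0.46 ± 0.16 (SE, adjusted p = 0.0362). That M1 call was lost in 6 of the 11 fits that left out 1 array, without M0 array 2 or 3 (adjusted p = 0.0661 and 0.067), M1 array 1 or 2 (0.125 and 0.124) or M2a array 2 or 3 (0.0517 and 0.0505). The M1 difference was wider, -1.22 (adjusted p = 0.000878), with the hybridization covariate and -0.92 (adjusted p = 0.000413) with the actin covariate.

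Dusp16, or MKP-7, which acts mainly on JNK and p38, rose in M1. It read 7.53, 7.58 and 7.67 in M1, 6.56, 6.67 and 6.60 in M2a and 5.44, 6.54, 6.29, 5.80 and 6.38 in M0. The 3 groups did not overlap, although the gap between M2a array 1 and M0 array 2 was narrow. The M1 difference was 1.50 ± 0.21 (SE, adjusted p = 0.000168 in limma), 2.83-fold, and 1.19 without M0 arrays 1 and 4, where Dusp16 was lowest. Averaged over both Dusp16 probe sets, it was 0.67 (adjusted p = 0.000533). In M2a the difference was 0.52 ± 0.21 (SE), with a 95% interval of 0.06 to 0.98 and an adjusted p of 0.0827. It passed without M0 array 2 (0.63, adjusted p = 0.0343) or M0 array 5 (0.59, adjusted p = 0.046). With the hybridization controls as a covariate the M1 difference was 0.34 (adjusted p = 0.199) and the M2a difference -0.53 (adjusted p = 0.0408).

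Dusp10, or MKP-5, also acts on JNK and p38 and was lower in both cytokine states at its brighter probe set. At that probe set, 1417164_at, its values were 5.81, 5.48 and 5.67 in M1, 5.40, 5.43 and 5.49 in M2a and 5.82, 6.12, 6.35, 6.37 and 5.82 in M0. All M2a arrays lay below M0, and M1 array 1 was only just below the lowest M0 arrays. The difference from M0 was -0.44 ± 0.15 (SE, adjusted p = 0.0313 in limma) in M1 and -0.66 ± 0.15 (SE, adjusted p = 0.00492) in M2a. The M1 call was lost without M0 array 2, 3 or 4 (adjusted p = 0.0532, 0.0647 and 0.051) or M1 array 2 or 3 (0.141 and 0.081).

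The second probe sets of Dusp10 and Dusp16 were dimmer and did not follow the first. At 1417163_at, Dusp10 was 4.42, 4.47 and 4.38 in M1, 4.83, 4.64 and 4.83 in M2a and 4.70, 4.15, 4.36, 4.47 and 4.33 in M0. There the M2a difference from M0 was positive, 0.36 ± 0.12 (SE, adjusted p = 0.0347 in limma over the 34945 probe sets with 1 symbol), opposite to that of 1417164_at, and the M1 difference was 0.02 ± 0.12 (SE, adjusted p = 0.892). The direction of Dusp10 in M2a therefore differs between its probe sets, and which transcripts each reads was not tested. For Dusp16, 1440615_at read 3.32 to 3.51 in M1, 3.09 to 3.53 in M2a and 3.19 to 3.94 in M0, and it passed in no comparison (differences of -0.16 in M1 and -0.22 in M2a against M0, adjusted p = 0.466 and 0.327).

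Set against each other, M1 and M2a differed in 5 of the 7 genes, with Dusp2, Dusp6 and Dusp16 higher in M1 and Dusp4 and Dusp5 lower. Over all genes 29.4% were called, 13.7% higher and 15.6% lower. The arrays of the 2 states did not overlap for 6 of the 7 genes, against 64.6% of all genes. The median difference of the 7 genes was 0.52, and that of all genes was -0.02.

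**Figure D2:**
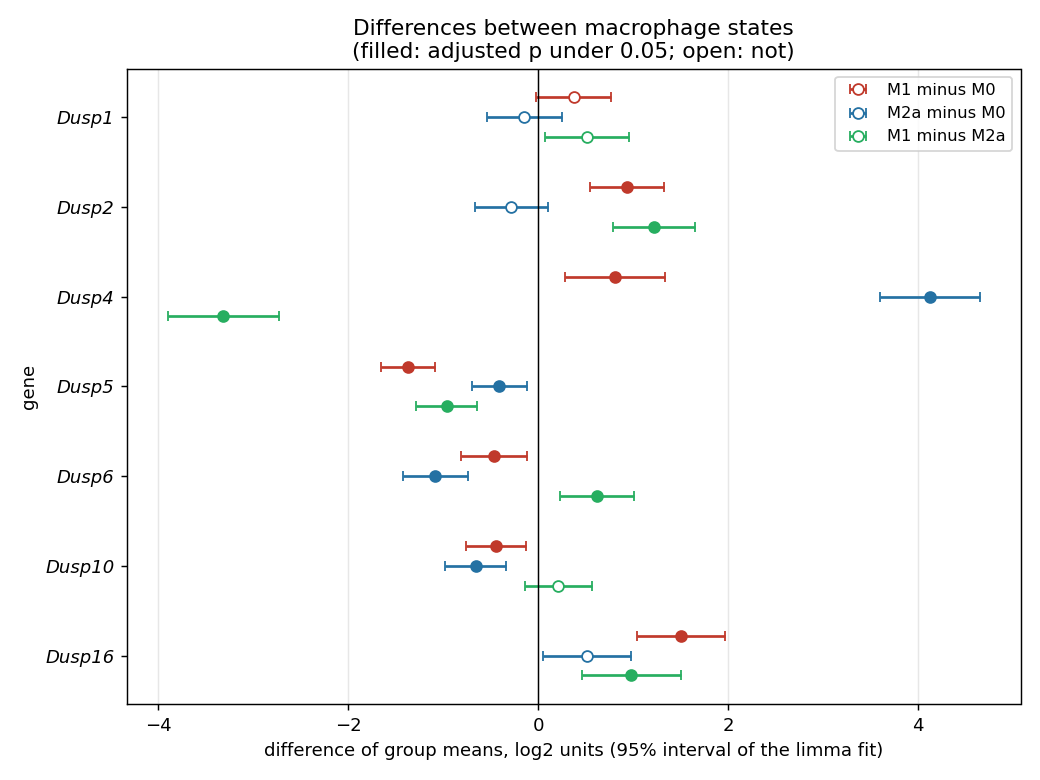
Difference in log2 value of each phosphatase gene in the 3 comparisons, with 95% intervals of the limma fit and a line at 0. Filled points passed an adjusted p of 0.05. Dusp4 stands at 4.13 for M2a against M0 and at -3.31 for M1 against M2a, and Dusp5 is below 0 in all 3 comparisons.

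Dusp4 was 9.94-fold lower in M1 than in M2a, a difference of -3.31 ± 0.27 (SE, adjusted p = 2.03e-06 in limma). Dusp5 was 1.95-fold lower in M1 (-0.96 ± 0.15 SE, adjusted p = 0.000368), and Dusp2 was 2.33-fold higher (1.22 ± 0.20 SE, adjusted p = 0.00061). These 3 calls held under all 26 alternatives, at -3.77 to -3.23 for Dusp4, -1.01 to -0.65 for Dusp5 and 0.69 to 1.32 for Dusp2, whose 0.69 came with the actin covariate. Dusp16 was 1.98-fold higher in M1 (0.98 ± 0.24 SE, adjusted p = 0.00836), and 0.52 higher by the mean of its probe sets (adjusted p = 0.00734). Dusp6 was 1.54-fold higher (0.62 ± 0.18 SE, adjusted p = 0.0202), a call lost without M1 array 3 or M2a array 1 or 2 (adjusted p = 0.0869, 0.0734 and 0.0512). For both Dusp6 and Dusp16 the actin probe ratio as a covariate ended the call (0.19 and 0.65, adjusted p = 0.321 and 0.102). That ratio, the 5′ minus the 3′ probe sets of actin and a sign of RNA integrity or labelling, was 0.15 ± 0.02 in M1 (SD, n = 3), -0.57 ± 0.06 in M2a (SD, n = 3) and -0.61 ± 0.47 in M0 (SD, n = 5). The Dusp1 arrays of M1 were all above those of M2a, with a difference of 0.52 ± 0.20 (SE), a 95% interval of 0.07 to 0.96 and an adjusted p of 0.0774. It passed without M0 array 4 or 5 (adjusted p = 0.0358 for both). Leaving out an M0 array changes the spread used in this test and not the difference itself. For Dusp10 the difference was 0.22 ± 0.16 (SE) with an interval of -0.14 to 0.57 (adjusted p = 0.363), and the arrays overlapped.

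The 7 genes thus fell into several orders of their group means. Dusp1 and Dusp2 ran from M1 down to M0 and M2a, Dusp16 from M1 to M2a and M0, Dusp4 from M2a to M1 and M0, Dusp5 from M0 to M2a and M1, and Dusp6 and Dusp10 from M0 to M1 and M2a. Neighbours in these orders whose difference did not pass the test were all 3 groups of Dusp1, M2a and M0 for Dusp2 and Dusp16, and M1 and M2a for Dusp10. The group means of Dusp4 spanned 4.13, more than those of 98.7% of all genes. For Dusp16, Dusp5, Dusp2, Dusp6 and Dusp10 the spans were 1.50, 1.37, 1.22, 1.08 and 0.66, more than those of 89.6%, 87.9%, 85.5%, 82.9% and 66.1% of genes.

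For the 5 genes whose group means spanned at least 1, the genes with the most similar profile over the 11 arrays were found by the root-mean-square distance between values centred on each gene's own mean. Nearest to Dusp4 among 16329 genes were Wfs1, which encodes wolframin of the endoplasmic reticulum (distance 0.21), Sphk1, the sphingosine kinase (0.218), and F7, coagulation factor VII (0.262). Mean Wfs1 was 7.08 in M1, 10.29 in M2a and 6.11 in M0. Nearest to Dusp16 were Luzp1 (0.104), P4ha1, a subunit of collagen prolyl hydroxylase (0.11), and Phf12 (0.131). All 3 were lowest on M0 arrays 1 and 4, as Dusp16 was. For Dusp2 they were Prpf38a (0.0897), Slc36a1 (0.09) and Dnaja1 (0.0903), for Dusp5 Tbx6 (0.121), Ebf3 (0.135) and Deptor (0.138), and for Dusp6 Nfatc1 (0.0993), Tob2 (0.106) and Dbf4 (0.126). These genes were chosen for their likeness, so it is a description. The points share arrays, 5 of them tied M0 arrays.

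**Figure D3:**
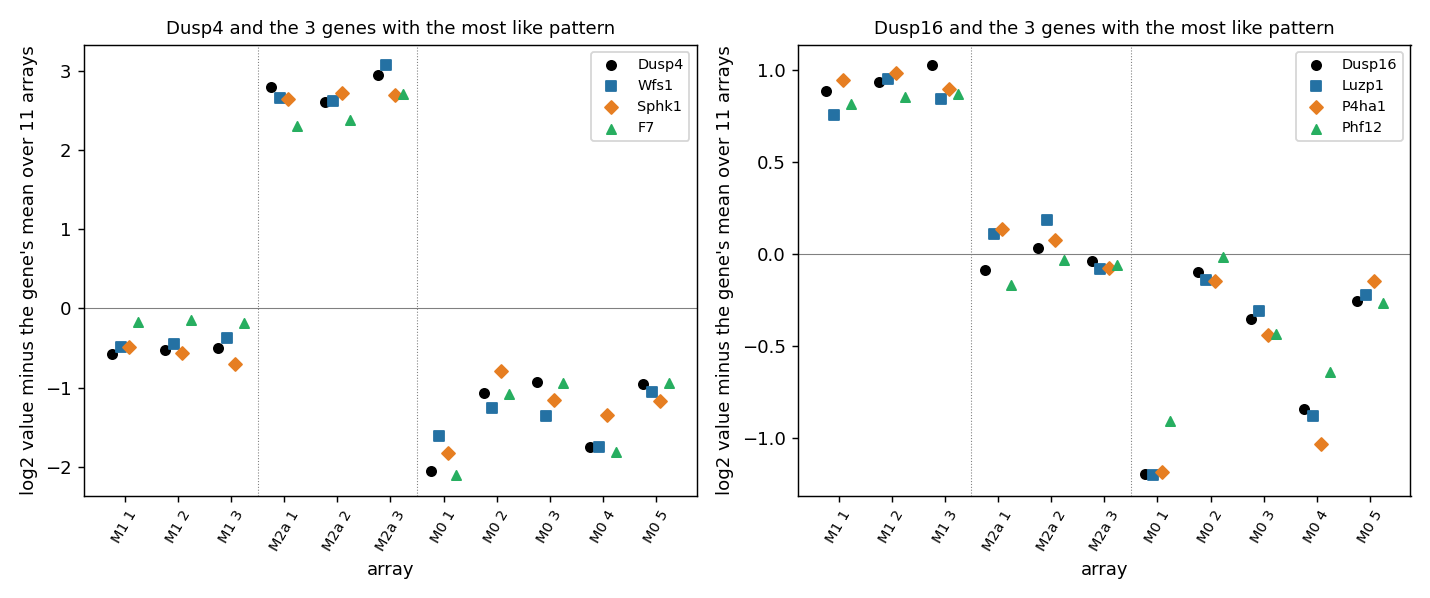
Log2 values on the 11 arrays, each gene minus its own mean, for Dusp4 with Wfs1, Sphk1 and F7 (left) and for Dusp16 with Luzp1, P4ha1 and Phf12 (right). The arrays run M1, M2a, M0, separated by dotted lines. The Dusp4 group is high on the M2a arrays, and the Dusp16 group is high in M1 and lowest on M0 arrays 1 and 4.

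Around these phosphatases, 104 of 112 genes in 11 lists of the MAP kinase pathway were measured, and the other 8 are not analysed here. Counts of rises and falls are limma calls over all genes, whose medians and shares called are given above. Many of these counts are small, and leaving out 1 array moved them by up to 3 genes. The ranges below are from those fits and are given for some of the counts. A count printed without a range may also have moved. Of the genes that the naming rule took, values are given for those whose call held under every alternative run, unless said otherwise. The remaining MAP kinase phosphatases were Dusp7, Dusp8 and Dusp9. Dusp7, a cytoplasmic relative of Dusp6, fell in M1 (-0.80, adjusted p = 0.000304 in limma), the only one of the 3 to pass there, and Dusp9 rose in M2a (0.70, adjusted p = 0.00568), again the only one. The median of the 3 was -0.26 in M1 and 0.11 in M2a. Among 13 atypical dual-specificity phosphatases, which lack the MAP kinase-binding domain, 3 rose and 2 fell in M1 (falls 1 to 2, median 0.13), and 5 rose and none fell in M2a (median 0.24, and none lower at an unadjusted p under 0.05 in limma). Dusp28 rose in M1 (1.51, adjusted p = 1.8e-07), Dusp3 fell there (-1.07, adjusted p = 0.00283), and Dusp13 rose in M2a (1.78, adjusted p = 5.75e-06). The M2a count of 5 lay between 2 and 5 when 1 array was left out. Of 7 tyrosine and serine/threonine phosphatases of MAP kinases, 1 fell in M1 (median -0.01), and 1 rose and 2 fell in M2a (rises 0 to 2, falls 0 to 2, median 0.11).

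The MAP kinases, which the phosphatases act on, and the kinases upstream and downstream of them moved in both directions. Among all genes 39.7% were called in M1 against M0 and 31.9% in M2a against M0. Of 8 MAP kinases 3 rose and 2 fell in M1 (median 0.19), and 2 rose and 2 fell in M2a (falls 1 to 2, median -0.05). Mapk13, which encodes p38 delta, fell in M1 (-1.30, adjusted p = 4.26e-05 in limma). The MAP2 kinases, of which 6 were measured, had 1 rise in M1 (median 0.02) and 1 rise and 1 fall in M2a (rises 0 to 3, median 0.22). In 13 MAP3 kinases 3 rose and 3 fell in M1 (rises 2 to 4, falls 2 to 3, median 0.03), and 2 rose and 2 fell in M2a (rises 1 to 3, falls 1 to 5, median 0.10). Map3k5, the stress kinase ASK1, fell in both M1 (-1.34, adjusted p = 1.11e-06) and M2a (-1.58, adjusted p = 5.33e-07), and Map3k6, its relative ASK2, rose in M2a (1.06, adjusted p = 8.05e-05). Map3k8, the kinase Tpl2 that links Toll-like receptors to ERK, was higher in M1 than in M2a (2.38, adjusted p = 0.00234). Of 7 kinases activated by MAP kinases, 1 rose and 2 fell in M1 (rises 0 to 1, falls 2 to 3, median -0.19), and 2 rose and 4 fell in M2a (rises 1 to 2, falls 3 to 5, median -0.37), among them Mapkapk3, a substrate of p38 (-1.54, adjusted p = 1.04e-05), and Rps6ka5, the nuclear kinase MSK1 (-1.34, adjusted p = 0.00123).

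Other feedback regulators of ERK and immediate-early genes, which MAP kinases switch on, also moved. Of 11 Sprouty, Spred and related feedback genes 5 rose and none fell in M1 in limma (rises 4 to 6, falls 0 to 1, median 0.72). None was lower there at an unadjusted p under 0.05 in limma. In M2a 5 rose and 1 fell (rises 4 to 5, falls 0 to 1, median 0.28). Spred2, an inhibitor of the Ras to ERK pathway, rose in M2a (1.78, adjusted p = 9.8e-05 in limma), while Spry2 was lower in M1 than in M2a (-1.38, adjusted p = 0.000451). With the hybridization controls as a covariate, Spred1, called higher in both states, was lower in M1 (-0.87) and in M2a (-0.59). Of 13 immediate-early genes 2 rose and 5 fell in M1 (median -0.12), and 8 rose and 3 fell in M2a (median 0.62). Egr2, a zinc finger transcription factor, rose in M2a (3.73, adjusted p = 3.65e-05), where Dusp4 also rose, while Egr1 fell in M1 (-2.14, adjusted p = 2.18e-06) and in M2a (-1.72, adjusted p = 2.11e-05). Ier2 fell alongside it in both states (-2.16 in M1 and -1.76 in M2a, adjusted p = 1.61e-05 and 0.000121). Fosl1, a Fos relative, rose in M1 (1.72, adjusted p = 1.82e-05). The M1 count of 5 falls lay between 3 and 6 when 1 array was left out.

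The last list held 9 inflammatory transcripts whose synthesis or stability depends on MAP kinases, and Zfp36, which encodes the decay factor tristetraprolin. Its 10 genes parted the 2 states. In M1 6 rose and 1 fell (falls 1 to 2, median 1.68), in M2a none rose in limma, also at an unadjusted p under 0.05, and 8 fell (median -1.45), and all 10 were higher in M1 than in M2a (median 2.79). Ptgs2, which encodes cyclooxygenase-2, was 11.74 ± 0.17 in M1 (SD, n = 3), 3.24 ± 0.26 in M2a (SD, n = 3) and 6.43 ± 0.44 in M0 (SD, n = 5), with differences from M0 of 5.32 in M1 (adjusted p = 1.06e-08 in limma) and -3.18 in M2a (adjusted p = 1.34e-06). Il1b rose in M1 (4.15, adjusted p = 5e-09), Ccl3 fell there (-0.97, adjusted p = 0.00297), and Cxcl2 fell in M2a (-3.03, adjusted p = 1.43e-05).

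**Figure D4:**
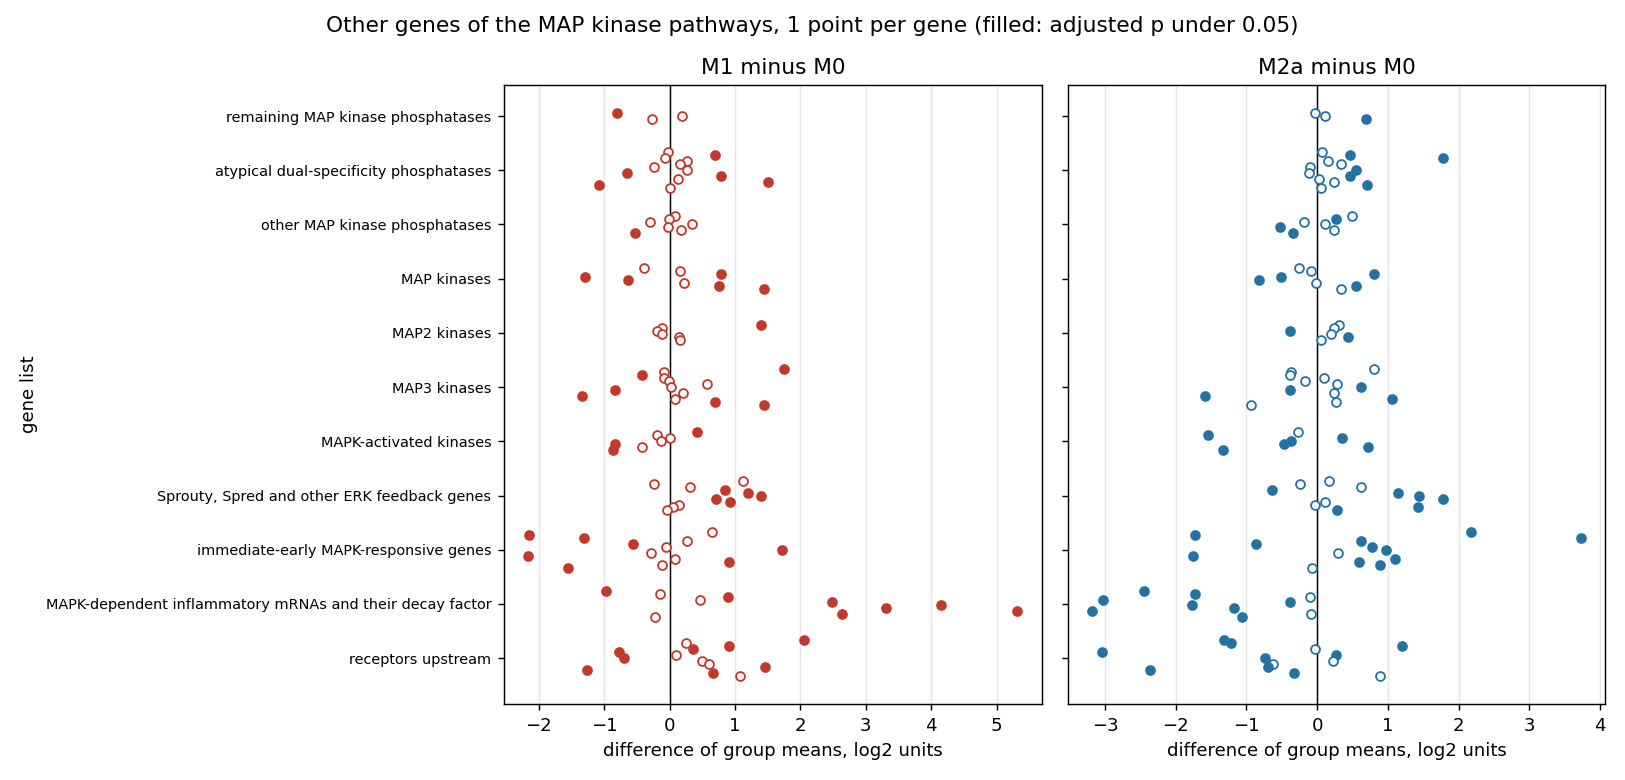
Difference in log2 value from M0 for each measured gene of the 11 MAP kinase pathway lists, M1 on the left and M2a on the right. Each point is a gene, and filled points passed an adjusted p of 0.05. The filled points of the list of inflammatory transcripts and Zfp36 lie mostly above 0 in M1 (6 higher, 1 lower) and all below 0 in M2a (8 lower).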

How the data were processed

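Values are on a log2 scale as the authors deposited them, 45101 probe sets on each of 11 arrays. The submitters' processing notes name Partek and no version. How background was corrected, probes summarised and arrays normalized is not stated in any source used here. In a table of probe sets and genes, 34945 probe sets had 1 symbol, and the Entrez identifier gave the current symbol for 34741 of them, while 932 with several symbols and 64 control probe sets were left out. For each of the 18193 genes the brightest probe set by mean over 11 arrays was used (9010 genes had several). Low values were not filtered, and precision is limited by the number of arrays.

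Differences were tested in limma 3.58.1 under R 4.3.3, using lmFit and eBayes with group means over all 11 arrays (8 residual degrees of freedom that count the tied M0 arrays as independent), two-sided, with Benjamini-Hochberg adjustment over all 18193 genes and a threshold of 0.05. The fit was also run on simulated data with the same spread in all groups and independent arrays. That run does not cover the wider spread of M0 or its tied arrays. The 7 genes and the gene lists were chosen with earlier results of these data known. The rule for named genes took, per pathway list and comparison, up to 2 called genes with the largest rise and up to 2 with the largest fall, and 3 genes of like profile for members spanning at least 1. Restricting values to calls held under every alternative was added after the results were seen. The 26 alternatives were other normalizations, probe-set choices, filters and fits, covariates, and each array left out in turn. Promoter windows came from RefSeq (GRCm38.p6).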

Additional observations from a re-analysis of the deposited data

How the results depend on the processing

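Of 7 phosphatase genes, the number called was 6 in M1 against M0, 4 in M2a against M0 and 5 in M1 against M2a. Leaving out 1 array at a time gave 3 to 7 (3 without M1 array 2, 7 without M0 array 5), 3 to 5 and 4 to 6. Over all genes the shares called in those fits were 29.6% to 46.5%, 22.9% to 37.5% and 21.6% to 34%. With the hybridization controls as a covariate the M1 count against M0 was 2, while 47.6% of all genes were called. Filters on low values left 6 genes (without Dusp10) or 7, with 5, 3 and 5 or 6, 4 and 5 called. Of all genes left by the first filter, 50.8%, 43.7% and 41.8% were called, and by the second 52.1%, 45.2% and 42.6%. These shares are higher than those without a filter. Whether a replicate number marks a shared mouse or batch is not in the labels. Correlations of deviations between arrays of the same number were -0.039 to 0.25. With 3 arrays per group they cannot decide it. With the replicate number as a block 6, 4 and 6 genes were called, against 44.1%, 35.7% and 38.3% of all genes. Under that block Dusp1 passed in M1 against M2a (0.52, adjusted p = 0.0212), and no other call of the 7 genes changed. Against M0 the hybridization covariate rests on an extrapolation, as no M0 array reached the control levels of the other groups. The cause of the changes below was not tested.

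In M1 against M0, the hybridization covariate gave Dusp1 -0.19, Dusp2 0.038, Dusp4 -0.50, Dusp10 -0.35 and Dusp16 0.34, and the actin covariate gave Dusp1 -0.11, Dusp4 0.33 and Dusp10 -0.14. Calls that held but moved by over 1.5 times were Dusp5 -0.78 and Dusp6 -1.22 (hybridization covariate), Dusp2 0.39 and Dusp6 -0.92 (actin covariate) and Dusp16 0.67 (mean of its probe sets). Dusp6 no longer passed with median centring (-0.41) or with only the compared groups (-0.46), nor did Dusp10 with the mean of its probe sets (-0.21) or only the compared groups (-0.44). In M2a against M0, Dusp2 passed with array weights (-0.41), without M0 arrays 1 and 4 (-0.50) and with the hybridization (-1.09) or actin covariate (-0.31). Dusp5 no longer passed with quantile normalization (-0.48), only the compared groups (-0.41) or the hybridization covariate (0.12), and Dusp10 with the mean of its probe sets (-0.15) or the hybridization covariate (-0.58). Dusp16 passed with array weights (0.30) and was -0.53 with the hybridization covariate, Dusp6 was -1.76 with that covariate, and Dusp5 was -0.25 without M0 arrays 1 and 4. In M1 against M2a, Dusp1 passed with array weights (0.42), only the compared groups, M0 arrays 1 to 3 only or without M0 arrays 1 and 4 (0.52 in each) and the hybridization covariate (0.46). The actin covariate gave Dusp6 0.19, Dusp16 0.65 and Dusp10 0.50, which passed, and the mean of probe sets gave Dusp10 -0.063 and Dusp16 0.52; Dusp2 was 0.69 with the actin covariate.

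Leaving out 1 array at a time gave differences of these ranges: in M1 against M0 Dusp1 0.22 to 0.52, Dusp2 0.82 to 1.06, Dusp4 0.64 to 0.92, Dusp5 -1.44 to -1.30, Dusp6 -0.56 to -0.36, Dusp10 -0.52 to -0.35 and Dusp16 1.34 to 1.61. The same ranges were, in M2a against M0 Dusp1 -0.25 to -0.04, Dusp2 -0.40 to -0.16, Dusp4 3.95 to 4.23, Dusp5 -0.48 to -0.33, Dusp6 -1.18 to -0.98, Dusp10 -0.73 to -0.59 and Dusp16 0.36 to 0.63, and in M1 against M2a Dusp1 0.36 to 0.66, Dusp2 1.14 to 1.32, Dusp4 -3.40 to -3.23, Dusp5 -1.01 to -0.92, Dusp6 0.53 to 0.67, Dusp10 0.14 to 0.30 and Dusp16 0.94 to 1.01.

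Signs turned for some pathway genes. With the hybridization covariate these were Mapk9 (-0.0079), Araf (-0.45), Map3k8 (-1.07) and Spred1 (-0.87) in M1 against M0, and Dusp3 (-0.049), Mapk13 (0.11), Map3k20 (-0.50), Rps6ka3 (-0.073), Mapkapk5 (-0.10) and Spred1 (-0.59) in M2a against M0. Without _x_at and _s_at probe sets Mapk12 was -0.22 in M1 against M0. With the probe set of largest SD, Mapk14 was 0.12 in M1 against M0 and Ppm1b 0.11 in M1 against M2a, and with the mean of probe sets Mknk2 was 0.072 in M1 against M2a. Called genes whose size moved by over 1.5 times included Egr2 (1.58) and Spred2 (0.69) in M2a against M0 and Fosl1 (0.81) and Mapk13 (-0.60) in M1 against M0 with the hybridization covariate, and Map3k8 (1.07) in M1 against M2a with the actin covariate. Over all genes, 5341 were called in M1 against M2a, and 11342 with array weights, 10357 with only the compared groups and 8442 with the hybridization covariate; in M2a against M0 5804 were called, and 9008 with that covariate.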

Other observations

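A list of receptors and the adaptor Myd88 also differed between the states. Of 13 genes measured, 5 were called higher and 3 lower in M1 than in M0 (median 0.50). In M2a 2 were higher and 7 lower than in M0 (median -0.63). Between M1 and M2a, 6 were higher and 1 lower in M1 (median 1.00). Among all genes the shares called higher and lower were 22.1% and 17.6%, 18.6% and 13.3%, and 13.7% and 15.6% in these comparisons. Cd14, the co-receptor for LPS, averaged 12.58 in M1, 9.22 in M2a and 10.53 in M0. Its difference was 2.05 in M1 against M0 (adjusted p = 5.52e-06 in limma) and 3.36 in M1 against M2a (adjusted p = 2.26e-07). Il4ra, the receptor chain shared by IL-4 and IL-13, was higher in M1 than in M0 (1.45, adjusted p = 6.49e-06). Csf3r, the G-CSF receptor of neutrophils and their precursors, was lower in M2a than in M0 (-3.04, adjusted p = 2.83e-08), as were the neutrophil-lineage markers. The number higher in M1 than in M0 lay between 4 and 8 when 1 array was left out.

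Xist, the X-inactivation transcript of female cells, was 5.58 and 5.81 on M2a arrays 1 and 2 and 11.0025 on M2a array 3, while the Y-linked Eif2s3y was 8.48 to 8.96 on all 3. On that array Dusp4 was 9.61, against 9.45 and 9.27 on the other M2a arrays. Without it the Dusp4 difference between M2a and M0 was 4.05. A link between the Xist and Dusp4 values was not tested.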
